A study of Mus musculus with 37 samples.

Results

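The genes followed here are 10 genes that carry glucose into the cell and break it down: the glucose transporters Slc2a1 and Slc2a3, the glycolytic enzyme genes Hk2, Pfkl, Aldoa, Pgk1, Eno1 and Pkm, and, at the fate of pyruvate, Ldha and Pdk1. They were taken by symbol from the table of raw counts by a rule that names the genes and sets no threshold on their values, and all 10 were found among the 35542 genes. The set was proposed with earlier results of these data known. Aldoa has a second, minor entry under the same identifier, and the entry kept here holds 99.8% of its counts. All 10 passed the filter on low counts in every fit described. Tailbud tissue of 37 mouse embryos at E8-8.5, with 6 to 11 somites, had been profiled by RNA-seq, with 1 library per embryo.

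Glucose enters cells through facilitative transporters, is phosphorylated and split, and yields pyruvate and ATP. Pyruvate can be reduced to lactate, which lets glycolysis run without the mitochondria, or it can pass into the TCA cycle through pyruvate dehydrogenase, a complex that the PDK kinases switch off. The tailbud and presomitic mesoderm of vertebrate embryos are known for high aerobic glycolysis, which is graded along the body axis and tied to FGF and Wnt signalling, and several of these genes are well known targets of the hypoxia-inducible factors and of MYC.

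The embryos were F1 hybrids of C57BL/6 mothers and Castaneus (Cast) fathers with intact Smchd1. Smchd1 wt embryos, the controls, carried Smchd1 fl/+, came from Smchd1 fl/fl mothers without Cre, and numbered 21 (4, 4, 3, 3, 4 and 3 at 6, 7, 8, 9, 10 and 11 somites). Smchd1 matΔ embryos carried Smchd1 del/+, came from Smchd1 del/fl mothers with an MMTV-Cre transgene, whose oocytes lack Smchd1, and numbered 16 (4, 3, 2, 2, 3 and 2). They lacked the oocyte supply of SMCHD1, a chromatin protein that keeps genes silent, and also had only the paternal Smchd1 copy, so these cannot be told apart in this comparison. Controls were 13 females and 8 males, and Smchd1 matΔ embryos 11 females and 5 males. The sexes were not balanced by stage: all embryos with 6 somites were female, and at 8 somites 2 controls but no Smchd1 matΔ embryo were male. The tissue was cut behind the last somite. The sources used here do not say which embryos shared a litter, so p-values measure the spread between embryos only.

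Total counts ran from 916444 to 80579115 per library, with a median of 12845991. Smchd1 itself, as a check of the labels, stood at 149 ± 22.8 CPM (counts scaled to 1000000 per library; SD, n = 21) in controls and at 88.7 ± 13.4 CPM (n = 16) in Smchd1 matΔ embryos, with an edgeR adjusted p of 1.45e-07. As a check of the tissue, all 13 tailbud genes examined, among them T, Cdx2 and Wnt3a, were detected in every library. Smchd1 matΔ replicates 1 and 2 at 6 somites were rich in ribosomal RNA counts, with up to 2.77% of all counts. Smchd1 matΔ replicate 3 at 6 somites was the shallowest library, and its 41 counts of Pdk1 were the lowest count of any of the 10 genes.

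Promoter windows of 300 bases, from 250 before to 50 after a RefSeq start in GRCm38.p6, were at hand for 9 of the 10 genes, not for Slc2a3. They were searched on both strands for ACGTG and GCGTG, the letters at the core of a hypoxia response element. The palindrome CACGTG, also the E-box of MYC and its relatives, counts on both strands. At least 1 match stood in 13 of 16 windows of these genes, and 43.8% of 32851 windows of all genes held one. Both cores contain the letters CG, and the windows of all genes were not matched for GC content. The contrast is thus not a test of enrichment. The 16 windows are not separate, since windows 2 and 3 of Aldoa, and those of Eno1, overlap and share their matches. Shown are the windows of Slc2a1, which fell with somite number, and of Pgk1, Ldha and Pdk1, which rose. Pfkl and Aldoa also rose and are not shown: the window of Pfkl held 1 match and the first window of Aldoa 0. Matches are in capitals, each sequence is read 5′ to 3′ on the strand of the gene, and for Ldha and Pdk1, which have 2 windows each, the first in the table is shown. All 4 lie on the plus strand.
Slc2a1, chr4:119108495-119108794: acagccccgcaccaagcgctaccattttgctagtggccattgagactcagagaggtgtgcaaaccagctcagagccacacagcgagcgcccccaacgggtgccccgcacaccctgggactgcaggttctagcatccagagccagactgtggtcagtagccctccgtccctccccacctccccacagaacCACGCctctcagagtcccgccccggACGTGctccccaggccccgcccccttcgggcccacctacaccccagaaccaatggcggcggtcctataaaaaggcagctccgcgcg
Pgk1, chrX:106186850-106187149: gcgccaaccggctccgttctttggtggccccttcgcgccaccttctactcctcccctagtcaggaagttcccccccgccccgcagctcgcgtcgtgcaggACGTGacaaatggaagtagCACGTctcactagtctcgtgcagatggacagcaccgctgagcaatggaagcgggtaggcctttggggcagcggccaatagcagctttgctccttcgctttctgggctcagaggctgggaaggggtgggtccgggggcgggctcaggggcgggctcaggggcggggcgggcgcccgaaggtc
Ldha, chr7:46845554-46845853: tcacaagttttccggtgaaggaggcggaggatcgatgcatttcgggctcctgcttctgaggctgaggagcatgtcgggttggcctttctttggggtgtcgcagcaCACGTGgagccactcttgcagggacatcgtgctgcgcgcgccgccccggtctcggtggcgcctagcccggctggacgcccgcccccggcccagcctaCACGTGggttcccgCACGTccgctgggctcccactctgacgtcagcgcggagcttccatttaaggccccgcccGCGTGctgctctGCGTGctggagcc
Pdk1, chr2:71872974-71873273: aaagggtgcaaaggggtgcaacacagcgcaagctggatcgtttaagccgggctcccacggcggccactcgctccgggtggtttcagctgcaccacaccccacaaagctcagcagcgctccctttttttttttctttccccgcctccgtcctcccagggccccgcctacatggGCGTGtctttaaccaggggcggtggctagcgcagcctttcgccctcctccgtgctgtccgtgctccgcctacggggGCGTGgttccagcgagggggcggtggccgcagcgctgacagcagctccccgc
These windows hold 2, 2, 7 and 2 matches. A match is a description of the letters and says nothing of whether a factor binds there.

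Per kilobase of exon, Ldha was the most abundant of the 10, at 931 ± 116 CPM per kb (SD, n = 37), followed by Pkm at 537 ± 65.2 and Pgk1 at 408 ± 68.2 CPM per kb. Ldha lay above Pkm, and Pkm above Pgk1, in 37 of 37 embryos. Slc2a3 (284 ± 51.9), Aldoa (276 ± 37.0), Slc2a1 (220 ± 44.7) and Eno1 (215 ± 22.7 CPM per kb) formed a group whose neighbours did not separate: Slc2a3 was above Aldoa in 20 of 37 embryos and Slc2a1 above Eno1 in 19 of 37. Pfkl (94.2 ± 16), Hk2 (32.1 ± 6.23) and Pdk1 (12.5 ± 3.57 CPM per kb) were lower. Each of the last 3 lay below the gene before it in the order in at least 36 of 37 embryos.

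Over 6 to 11 somites the 10 genes did not move together. In the fit of all 37 embryos, with genotype and sex as terms, 5 rose (Pfkl, Aldoa, Pgk1, Ldha and Pdk1), 2 fell (Slc2a1 and Slc2a3) and 3 did not pass the test (Hk2, Eno1 and Pkm) at an adjusted p of 0.05. Of 15575 genes tested, 18.6% passed in this fit, 9.21% upwards and 9.39% downwards. The median slope of the 10 genes was 0.04 on the log2 scale per somite, against −0.00 over all genes tested. Since the tissue is bulk, fewer cells of a type and less RNA per cell cannot be told apart for any of these genes.

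**Figure D1:**
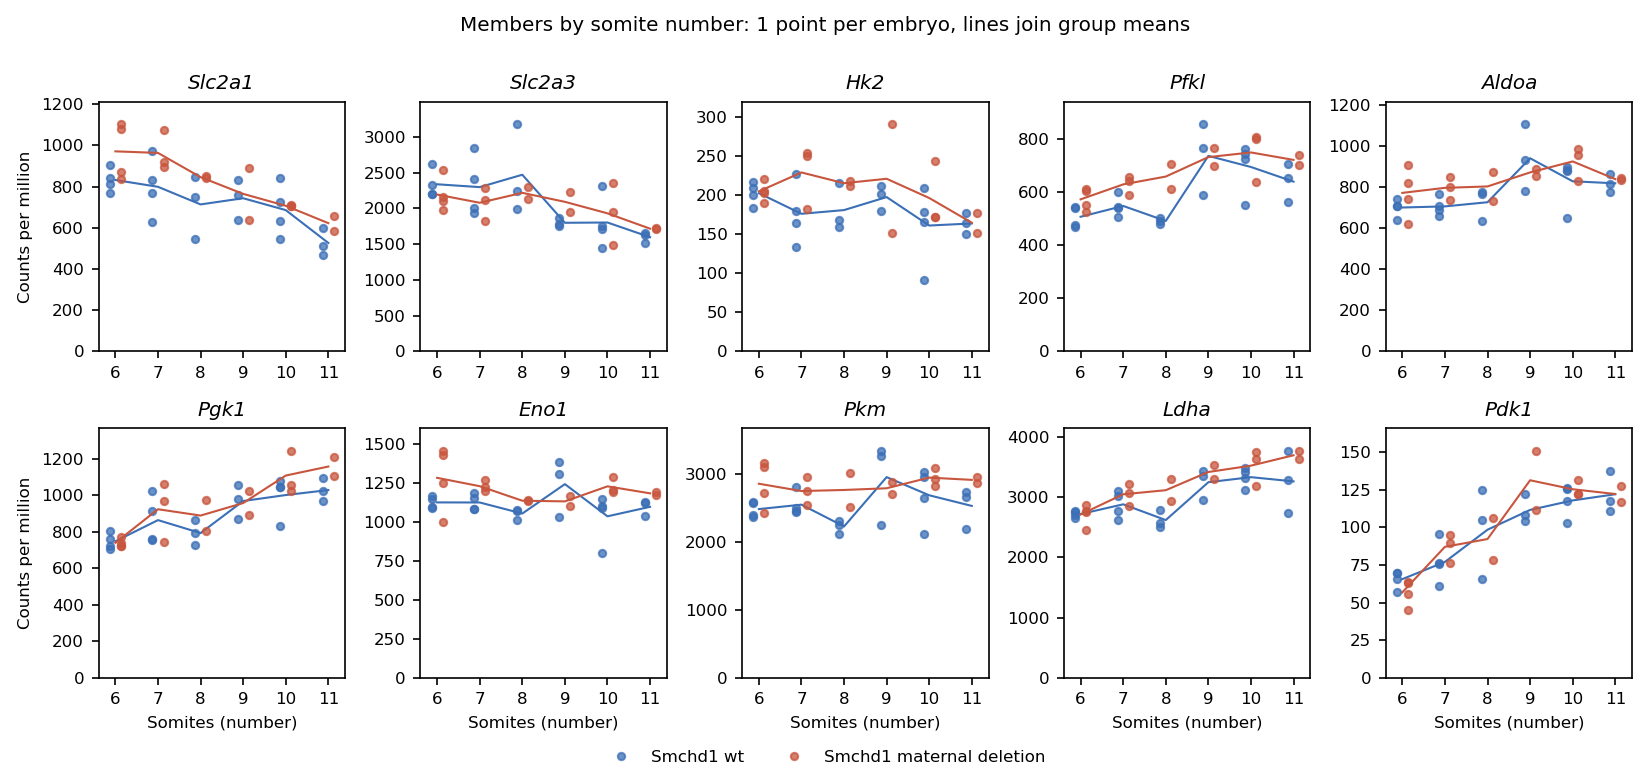
Levels in CPM (vertical axes, from 0) of the 10 genes against somite number, with 1 point per embryo and lines through the means of the 21 Smchd1 wt (blue) and 16 Smchd1 matΔ (red) embryos by stage. Slc2a1 and Slc2a3 descend from left to right, while Pgk1, Ldha and Pdk1 climb, in both genotypes.

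Slc2a1 encodes GLUT1, the transporter most cells use for basal glucose uptake. Its levels at 6 somites were 770.1 to 1103 CPM with a median of 856 (n = 8), and at 11 somites 467 to 659.9 CPM with a median of 586 (n = 5). No embryo with 11 somites reached the lowest with 6 somites. The medians between were 896, 842, 761 and 707 CPM at 7, 8, 9 and 10 somites, and the slope was −0.12 ± 0.02 (SE, n = 37) on the log2 scale per somite, with an adjusted p of 6.14e-06 (edgeR). That slope amounts to 0.657 times the level over 5 somites. Slc2a3 encodes GLUT3, a transporter with high affinity for glucose. It went from 1977 to 2619 CPM (median 2198) at 6 somites to 1516 to 1723 CPM (median 1654) at 11 somites, again without overlap. Its highest embryo, at 3175 CPM, had 8 somites, and its slope was −0.10 ± 0.02 log2 per somite (adjusted p = 1.66e-04, edgeR).

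Hk2 encodes the inducible hexokinase, which traps glucose in the cell as glucose phosphate. It stood at 184 to 221 CPM (median 204) at 6 somites and at 150.1 to 177 CPM (median 164) at 11 somites, so these end groups did not overlap. The embryos between spread more widely, from 91.0 CPM in 1 control with 10 somites to 291 CPM in 1 Smchd1 matΔ embryo with 9 somites, and the slope of −0.05 ± 0.02 log2 per somite did not pass the test (adjusted p = 0.122, edgeR). Of the 10 genes Hk2 had the widest spread within groups, with an SD of 0.29 log2 units, and Ldha the narrowest, with 0.11.

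Pfkl encodes the liver-type phosphofructokinase, which commits sugar to glycolysis, and Aldoa the aldolase that splits the product. Pfkl was at 468 to 612 CPM (median 543) at 6 somites, at a median of 503 CPM with 8 somites and of 765 CPM with 9 somites, and at 562 to 741 CPM (median 704) at 11 somites. The highest medians thus came at 9 and 10 somites, and the end groups overlapped. Its slope was 0.09 ± 0.02 log2 per somite (adjusted p = 1.58e-04, edgeR), 1.36 times over 5 somites. Aldoa had the smallest of the 5 rises, from a median of 726 CPM at 6 somites to 833 CPM at 11 somites with overlap, and a slope of 0.05 ± 0.02 log2 per somite (adjusted p = 0.0102, edgeR).

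Pgk1, an X-linked gene whose enzyme is the first of the pathway to make ATP, rose without overlap between the ends. It stood at 708 to 805 CPM (median 732) at 6 somites and at 967 to 1209 CPM (median 1096) at 11 somites, with a slope of 0.10 ± 0.01 log2 per somite and an adjusted p of 1.70e-06 (edgeR). Eno1, the enolase, and Pkm, the pyruvate kinase that makes the second ATP, act further down the pathway and did not pass the test. Eno1 had medians of 1158 CPM at 6 somites and 1128 CPM at 11 somites, with a slope of −0.02 ± 0.01 log2 per somite (adjusted p = 0.440, edgeR). Pkm had medians of 2583 CPM and 2739 CPM, with a slope of 0.02 ± 0.02 (adjusted p = 0.501, edgeR). The 95% interval of the slope was −0.04 to 0.01 for Eno1 and −0.01 to 0.05 for Pkm.

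Ldha encodes the lactate dehydrogenase subunit that favours making lactate, and Pdk1 a mitochondrial kinase that switches off pyruvate dehydrogenase, the complex that turns pyruvate into acetyl-CoA. Ldha rose from 2457 to 2863 CPM (median 2745) at 6 somites to 2728 to 3766 CPM (median 3622) at 11 somites. Control replicate 1 with 11 somites, at 2728 CPM, lay within the range of the embryos with 6 somites, and the other 4 lay above it. Its slope was 0.07 ± 0.01 log2 per somite (adjusted p = 1.22e-05, edgeR).

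Pdk1 changed most of the 10. Controls stood at 57.3, 65.9, 69.6 and 69.8 CPM with 6 somites and at 111, 118 and 138 CPM with 11 somites. Smchd1 matΔ embryos stood at 44.96, 55.5, 62.9 and 64.0 CPM with 6 somites and at 117 and 127 CPM with 11 somites. The 2 stages did not overlap in either genotype. The medians of both genotypes together were 63.5, 76.6, 105, 112, 122 and 118 CPM from 6 to 11 somites, so that most of the climb was over by 9 somites. The slope was 0.20 ± 0.02 log2 per somite, or 2.02 times over 5 somites, with an adjusted p of 1.19e-08 (edgeR). Between the 8 embryos with 6 somites and the 5 with 11 somites, 5 of the 10 genes did not overlap (Slc2a1, Slc2a3, Hk2, Pgk1 and Pdk1), and 4.4% of 15978 genes did not. All 8 with 6 somites were female, and those with 11 somites held 1 male of each genotype, so sex was not matched between these ends.

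Within controls alone 6 of the 10 genes passed the test (Slc2a1 and Slc2a3 fell, and Pfkl, Pgk1, Ldha and Pdk1 rose), where 6.64% of 15148 genes passed. Within Smchd1 matΔ embryos alone 5 passed (Slc2a1 fell, and the same 4 genes rose), where 3.07% of 15477 genes passed. Slc2a3 had a slope of −0.12 ± 0.03 log2 per somite in controls and −0.07 ± 0.02 in Smchd1 matΔ embryos (adjusted p = 0.154, edgeR), and Aldoa passed in neither genotype alone. Pdk1 had slopes of 0.19 ± 0.03 log2 per somite in controls and 0.22 ± 0.03 in Smchd1 matΔ embryos. The difference between the slopes passed the test for 0 of the 10 genes with edgeR and with DESeq2, 0 of the 10 had an unadjusted p under 0.05, where 3.92% of all genes tested did, and 0% of 15978 genes passed. The largest difference was that of Slc2a3, 0.05 log2 per somite with an interval of −0.02 to 0.12, and the adjusted p of each of the 10 was 1.0. In controls Ldha was no longer called without any one of replicates 1, 2 or 4 at 6 somites, 4 at 10 somites or 2 at 11 somites (slopes of 0.06 each, adjusted p from 0.0508 to 0.0801, edgeR). In the same way Pfkl was no longer called without control replicate 1 or 2 at 6 somites (slopes of 0.09 and 0.09), Slc2a1 without control replicate 2 or 3 at 11 somites (−0.10 and −0.09), and Aldoa was called without control replicate 1 at 10 somites (0.07). In Smchd1 matΔ embryos Pfkl was no longer called without replicate 4 at 6 somites, 3 at 10 somites or 2 at 11 somites (0.07, 0.07 and 0.09).

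**Figure D2:**
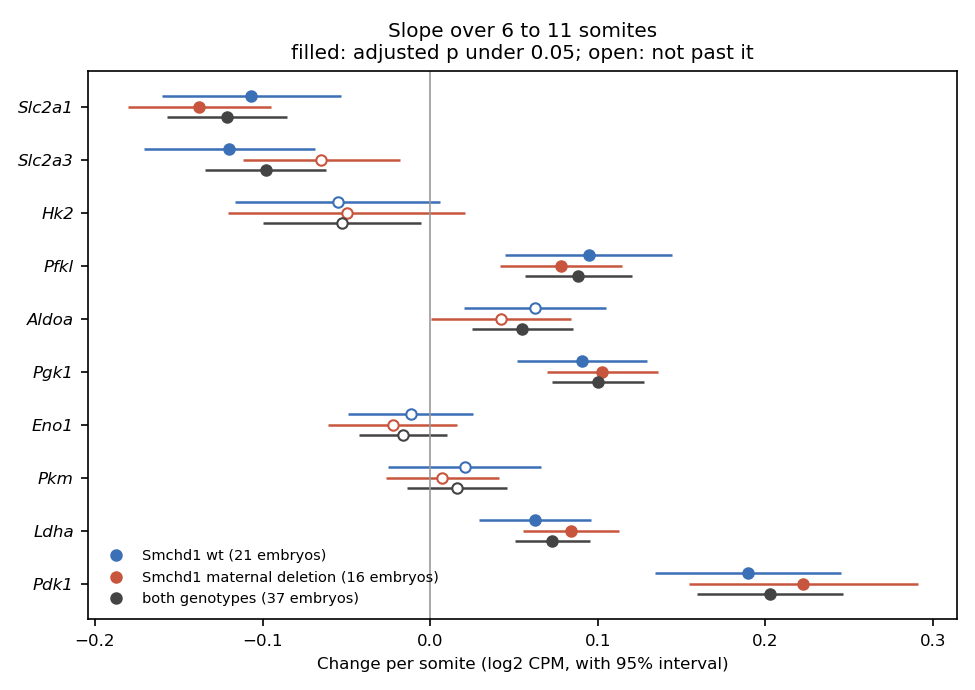
Change per somite on the log2 CPM scale (horizontal axis) of each of the 10 genes, with 95% intervals, in 21 Smchd1 wt embryos (blue), 16 Smchd1 matΔ embryos (red) and all 37 (grey). Filled points passed an adjusted p of 0.05: both transporters lie left of 0 and Pdk1 farthest to the right, near 0.20.

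Marker RNA of other cell types changed over the same stages. The summed level of 10 visceral endoderm markers, genes of the embryo's outer nutritive layer, ran from 572 to 5161 CPM in controls with 6 to 8 somites and from 35.2 to 4250.0 CPM with 9 to 11 somites, with medians of 1789 and 256 CPM. In Smchd1 matΔ embryos the medians were 1527 and 227 CPM. Each of the 10 markers was detected in every library, and 6 of the 10 fell with somite number in the fit of both genotypes. In controls alone 3 fell, and in Smchd1 matΔ embryos alone 0 passed with edgeR (smallest adjusted p = 0.463) and 0 had an unadjusted p under 0.05. The 9 markers of primitive red cells rose over the same stages, with medians of 111 and 898 CPM in controls, and 6 of the 9 passed the test. Of 8 endothelial markers 5 rose. With the log2 sum of the visceral endoderm markers as a covariate, an alternative chosen after seeing the data, 6 of the 10 slopes over both genotypes passed, where 6.45% of all genes did. Pdk1 had 0.19 log2 per somite (adjusted p = 6.69e-06, edgeR), Slc2a1 −0.09 (0.00762), Pgk1 0.07 (0.00420), Ldha 0.05 (0.00814) and Pfkl 0.06 (0.0469). Hk2 was then called as well, at −0.10 log2 per somite (adjusted p = 0.0176, edgeR). Slc2a3, at −0.04 (adjusted p = 0.178), and Aldoa, at 0.03 (adjusted p = 0.354), were not. Within controls only Pdk1 of the 10 then passed (0.18 log2 per somite, adjusted p = 0.0151, edgeR), where 1.91% of all genes did, and within Smchd1 matΔ embryos 4 of the 10 did, where 1.04% of all genes did. This covariate fell with somite number itself, so that part of the stage and of these cells cannot be told apart. The part of red cells and endothelium in these slopes was not tested.

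The wider pathway is set here against the 18.6% of all genes that passed in the same fit. Of 19 other glycolytic enzyme genes tested 15.8% passed, a share near that of all genes, and 3 rose over the somite stages and 0 fell: Tpi1, the triose phosphate isomerase (0.07 ± 0.01 log2 per somite), Pgam1, the phosphoglycerate mutase between Pgk1 and Eno1 (0.10 ± 0.02), and Eno3, the muscle enolase (0.16 ± 0.02). Of 7 other glucose transporter genes 0 passed with edgeR, 3 had an unadjusted p under 0.05, and the smallest p were those of Slc2a2 (−0.46 ± 0.18 log2 per somite, adjusted p = 0.0729, edgeR) and Slc2a4 (0.10 ± 0.05, adjusted p = 0.125). Among 20 genes of lactate and pyruvate handling 35% passed, and 5 fell, namely Ldhb, Ldhc, Slc16a1, Emb and Pdha1, and 2 rose, Slc16a3 and Pdp2. Ldhb, whose subunit favours turning lactate back to pyruvate, fell by 0.21 ± 0.02 log2 per somite while Ldha rose. The lactate carrier Slc16a1 and its chaperone Emb fell by 0.11 and 0.25, and Slc16a3, the carrier suited to lactate export, rose by 0.08 log2 per somite. Pdha1, the pyruvate dehydrogenase subunit that PDK1 phosphorylates, fell by 0.04, and Pdp2, a phosphatase that reverses the step, rose by 0.16 log2 per somite.

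Of 16 genes of the TCA cycle 0 rose, too few genes to set that count apart from the 9.21% of all genes that rose. Ogdh, a subunit of the oxoglutarate dehydrogenase complex, was among those that fell (−0.06 log2 per somite), as 9.39% of all genes did. Of 19 genes of pathways that branch from glycolysis 26.3% passed, and 2 rose, Rpia (0.11) and Ugp2 (0.09), and 3 fell, Phgdh, Gpd2 and Pygb (−0.08, −0.06 and −0.04). Of 25 genes of the response to low oxygen, none of them among the 10, 12 rose and 3 fell, or 60% in all, with a median slope of 0.07 log2 per somite. Those that rose included Bnip3 and Bnip3l, mitophagy receptors (0.12 ± 0.03 and 0.13 ± 0.02), Egln1, an oxygen sensor (0.08 ± 0.02), Vhl, which marks the factors for destruction (0.09 ± 0.02), and Ak4, Ddit4, Ero1l, Higd1a, Hif1an, Kdm3a, P4ha1 and again Slc16a3 (0.07 to 0.10 log2 per somite). Those that fell were Epas1, which encodes a hypoxia-inducible factor (−0.20 ± 0.06), Adm (−1.06 ± 0.21) and P4ha2 (−0.09 ± 0.02 log2 per somite). Of 13 upstream regulators 53.8% passed, and 3 rose (Mycn, Fgf17 and Dusp6, by 0.06, 0.12 and 0.09) and 4 fell (Myc, Fgf4, Etv4 and Axin2, by 0.10, 0.12, 0.15 and 0.07 log2 per somite). Of 2 genes of gluconeogenesis tested, Pck2 fell by 0.10 log2 per somite.

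**Figure D3:**
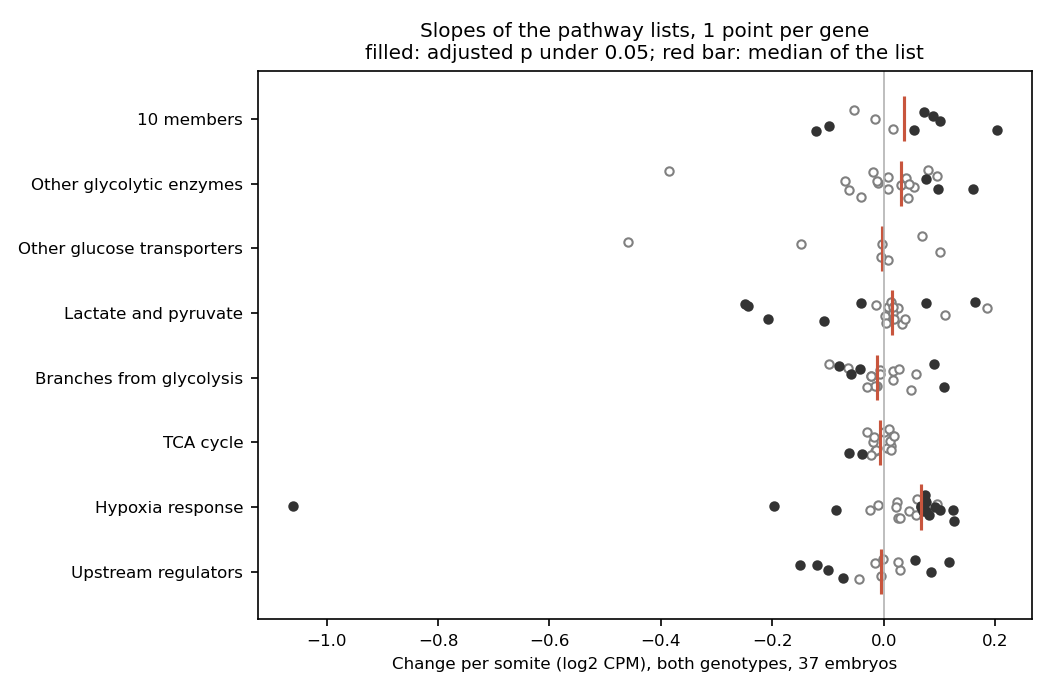
Change per somite on the log2 CPM scale (horizontal axis) for the 10 genes and 7 related lists in all 37 embryos, with 1 point per gene, filled where the adjusted p was under 0.05, and a red bar at the median of the list. The list of the hypoxia response has its median at 0.07, to the right of 0, and the point at the far left is Adm.

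Between genotypes 0 of the 10 genes passed the test over all stages, with somite number and sex as terms, in edgeR or in DESeq2, and 0.0125% of 15978 genes passed in edgeR. Differences were small and mostly in 1 direction. An unadjusted p under 0.05 was seen for 6 of the 10, where 5.67% of all genes tested did, and all 6 were higher in Smchd1 matΔ embryos, as 2.84% of all genes were. They were Slc2a1 (0.18 ± 0.06 on the log2 scale), Hk2 (0.18 ± 0.08), Pfkl (0.17 ± 0.05), Pkm (0.15 ± 0.05), Eno1 (0.12 ± 0.05) and Ldha (0.10 ± 0.04). Between embryos of the same genotype and somite number, Pfkl, Pkm, Eno1 and Ldha had Pearson r of 0.54 to 0.87 with each other. The differences of these genes are thus not independent results. The smallest adjusted p among the 10 was 0.867. The median of the 10 differences was 0.11, against −0.00 over all genes tested, and 9 of the 10 were positive.

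Slc2a1 was at 467 to 972 CPM (median 761) in 21 controls and at 586 to 1103 CPM (median 846) in 16 Smchd1 matΔ embryos, 15 of which lay above the control mean of their stage, though the genotypes overlapped at each of the 6 stages. For Eno1 all Smchd1 matΔ embryos lay above all controls of their stage at 4 of 6 stages, 7, 8, 10 and 11 somites. Of all genes tested 0.0188%, 3 genes, did so at 4 or more stages. That cut equals the count of Eno1, the highest of the 10 genes, so the share is a description and not a test. At 8 and 11 somites only 2 Smchd1 matΔ embryos stood against 3 controls. At 7 somites the controls were at 1082 to 1187 CPM and the Smchd1 matΔ embryos at 1199 to 1269 CPM. At 10 somites the controls were at 805 to 1152 CPM and the Smchd1 matΔ embryos at 1195 to 1287 CPM. At 6 and 9 somites they overlapped, and the fold between genotypes over all stages was 1.09. Slc2a3 and Pdk1 had the smallest differences, of −0.00 ± 0.06 and 0.04 ± 0.07, with intervals of −0.12 to 0.12 and −0.10 to 0.17 on the log2 scale.

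None of the related lists held a gene called between genotypes over all stages in edgeR. Of the 19 other glycolytic enzyme genes, 2 had an unadjusted p under 0.05, Pfkm (0.14 ± 0.05) and Gpi1 (0.10 ± 0.04), both higher in Smchd1 matΔ embryos. Of the 8 other transporters 1 did, Slc2a8 (0.29 ± 0.09). The smallest p of the hypoxia response was that of Ddit4, at 0.44 ± 0.11 on the log2 scale and an adjusted p of 0.670. Of the somite markers, genes of the neighbouring tissue, 4 were tested and 0 passed between genotypes (smallest adjusted p = 0.867, edgeR). Their median difference was 0.65, with 3 of them at an unadjusted p under 0.05, and at least 1 of the 8 listed was at 0 in every library of each group and window. Their summed level in Smchd1 matΔ embryos was 4.39 to 72.8 CPM at 6 to 8 somites and 9.56 to 28.5 CPM at 9 to 11 somites, against 4.01 to 12.8 and 9.36 to 23.4 CPM in controls. The highest 2 sums, 72.8 and 33.2 CPM, were those of the libraries rich in ribosomal RNA counts, Smchd1 matΔ replicates 2 and 1 at 6 somites, and the next was 28.5 CPM. Without these 2 libraries the differences over all stages were 0.15 for Slc2a1, 0.21 for Hk2, 0.16 for Pfkl, 0.12 for Pkm and 0.09 for Eno1, and 0 of the 10 passed. Of the 13 tailbud genes 0 passed, all 13 differences were positive with a median of 0.10, and 3 had an unadjusted p under 0.05, namely Fgf8 (0.32 ± 0.12), Sox2 (0.32 ± 0.13) and Cdx1 (0.31 ± 0.13). The part of somite and tailbud genes in the differences was not tested. With the visceral endoderm sum as a covariate the differences were 0.20 for Slc2a1, 0.17 for Pfkl and 0.15 for Pkm, and 0 of the 10 passed.

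Split by stage, 0 of the 10 genes passed with edgeR at 6 to 8 somites, where 0.00639% of genes passed, and 6 of the 10 had an unadjusted p under 0.05, where 7.77% did. All 6 were higher in Smchd1 matΔ embryos, as 3.87% of all genes were. Of these, Pfkl, Aldoa, Eno1 and Pkm had Pearson r of 0.57 to 0.84 with each other within groups in this window, so they are not independent results. The largest was Pfkl, at 0.26 ± 0.06 log2 units and an adjusted p of 0.281, and DESeq2 called it in this window (adjusted p = 0.00552), where it called 0.236% of all genes. At 9 to 11 somites 0 of the 10 passed by either tool, 0.00635% of genes passed with edgeR, and 0 of the 10 had an unadjusted p under 0.05, where 1.88% of genes did. The differences at 9 to 11 somites ran from 0.06 for Aldoa to 0.21 for Hk2. The change of the difference between the windows passed for 0 of the 10 with edgeR or DESeq2, with 0% of 16265 genes called. An unadjusted p under 0.05 was seen for 0 of the 10 and for 3.55% of all genes, and the interval for Pfkl was −0.33 to 0.05. At single stages, with 2 to 4 embryos a genotype, 0 of the 10 passed by either tool at any of the 6 stages, where 0% of genes passed. At an unadjusted p under 0.05 there were 2, 3, 1, 0, 0 and 0 of the 10 at 6, 7, 8, 9, 10 and 11 somites, beside 5.54%, 4.83%, 2.81%, 1.15%, 0.56% and 8.66% of all genes.

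**Figure D4:**
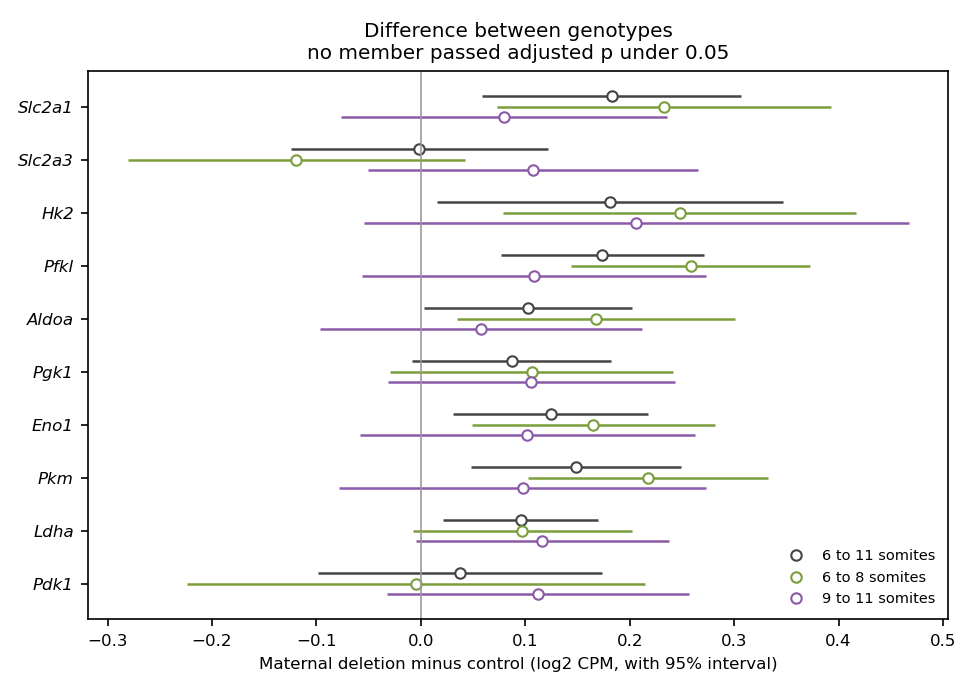
Difference between Smchd1 matΔ and Smchd1 wt embryos on the log2 CPM scale (horizontal axis; positive is higher in Smchd1 matΔ) for each of the 10 genes, with 95% intervals, over all stages (grey), at 6 to 8 somites (green) and at 9 to 11 somites (purple). Most points lie right of 0, between 0.04 and 0.26, and none passed an adjusted p of 0.05.

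The trend of expression with the GC content of transcripts differed widely among embryos. Per 10 GC points it was −0.04 ± 0.15 log2 units (SD, n = 21) in controls, from −0.34 to 0.28. In Smchd1 matΔ embryos it was 0.05 ± 0.15 (SD, n = 16), from −0.26 to 0.38. The ranges overlapped, the mean was higher in Smchd1 matΔ embryos, and this difference was not tested. The highest value was that of Smchd1 matΔ replicate 1 at 6 somites, rich in ribosomal RNA counts. The exons of Pfkl and Aldoa, at 57.4% and 57.6% GC, lay high among all genes, whose median was 50.8%. Within groups, the 2 of the 10 genes with the highest r with the GC trend were Slc2a1 (0.63) and Pkm (0.49). With that trend as a covariate, an alternative chosen after seeing the data, the differences over all stages were 0.12 for Slc2a1, 0.23 for Hk2, 0.14 for Pfkl and 0.10 for Pkm and for Eno1, and 0 of the 10 passed. Between the sexes 0 of the 10 genes passed with edgeR or DESeq2, 0 had an unadjusted p under 0.05, where 3.3% of genes did, and 0.219% of 15978 genes passed. For the X-linked Pgk1 the difference was 0.06 ± 0.06 log2 units.

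Embryos of the same genotype and somite number varied together in most of the enzyme genes. After the means of the 12 groups of genotype and stage were removed, the 45 pairs among the 10 genes had a median Pearson r of 0.40 over 37 embryos, against 0.02 over all pairs of the 15978 genes tested, and 35.6% of the 45 pairs had r above 0.5, against 7.39% of all pairs. The 10 genes had mean levels of 97.2 to 3081 CPM, while only 9752 other genes had a mean of at least 10 CPM. The background thus held many genes at lower levels, and the part of level in this contrast was not tested. Values of 1 library share its normalisation and depth. The highest r was that of Aldoa and Eno1 (r = 0.87, Spearman's rho = 0.77), followed by Pfkl and Pkm (0.87 and 0.83), Pfkl and Aldoa (0.84 and 0.79), Eno1 and Pkm (0.82 and 0.69) and Aldoa and Pkm (0.79 and 0.73). Permutation of embryos within groups gave two-sided p of 1e-05 to 4.1e-04 for r of these 5 pairs and 1e-05 to 0.00106 for rho, where 1e-05 is the smallest that 100000 permutations can give. Without the 2 embryos farthest from the median the 5 r values were 0.72 to 0.81. Within controls they were 0.74 to 0.91, within Smchd1 matΔ embryos 0.74 to 0.93, at 6 to 8 somites 0.72 to 0.84, and at 9 to 11 somites 0.85 to 0.92.

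Over all 37 embryos the transporters did not follow the enzymes. By genotype Slc2a1 differed: its r with Pfkl, Aldoa, Eno1, Pkm and Ldha was 0.44 to 0.56 within Smchd1 matΔ embryos and −0.37 to −0.07 within controls. With Hk2, Pgk1 and Pdk1 its r within Smchd1 matΔ embryos was −0.51 to −0.04. These differences between genotypes were not tested. Slc2a1 and Slc2a3 had r = 0.63 with each other (rho = 0.60; 0.84 within controls and 0.14 within Smchd1 matΔ embryos, a difference that was not tested), but the median r of Slc2a3 with the 9 other genes was −0.41 and that of Slc2a1 −0.05. The 3 lowest of the 45 pairs were Slc2a3 with Aldoa (r = −0.50, rho = −0.40), with Pdk1 (−0.46 and −0.42) and with Eno1 (−0.46 and −0.41). Two-sided permutation p were 0.0110, 0.0410 and 0.00929 for r and 0.0384, 0.0358 and 0.0230 for rho, in this order and before any adjustment. Without the 2 farthest embryos they were −0.33, −0.41 and −0.32. Pdk1, which changed most with stage, had a median r of 0.17 with the others.

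**Figure D5:**
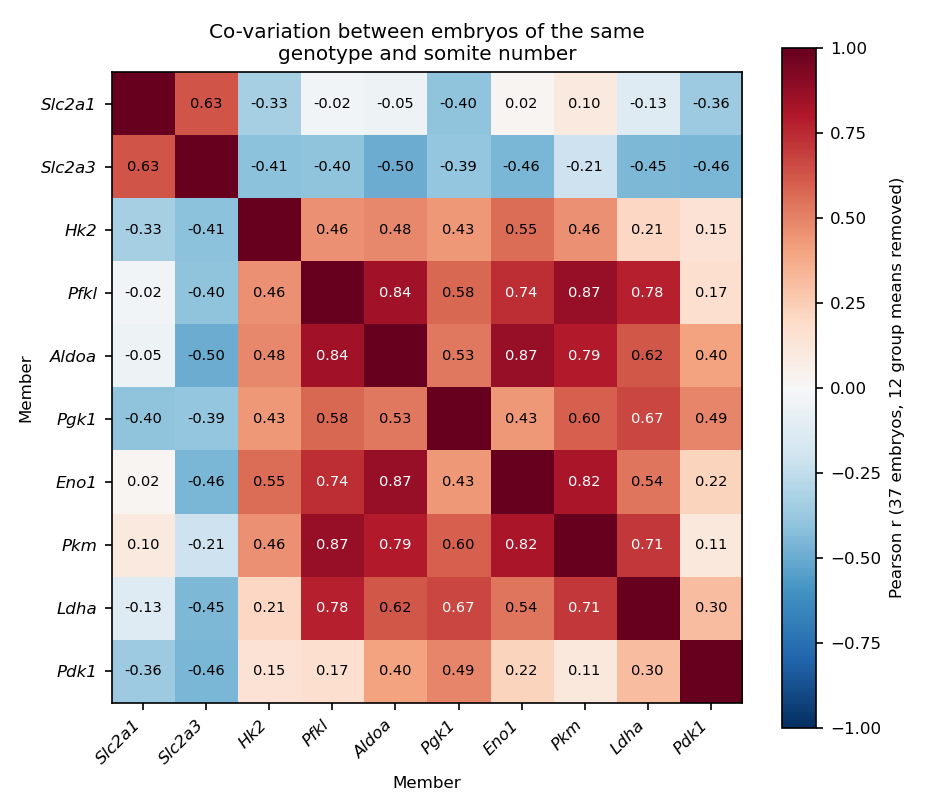
Pearson r between each pair of the 10 genes over 37 embryos, after the means of the 12 groups of genotype and somite number were removed, from −1 (blue) to 1 (red). The block from Hk2 to Ldha is red, with r up to 0.87, Slc2a3 is red with Slc2a1 only, and Slc2a1 lies between −0.40 and 0.10 with the other 8 genes.

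When each of the 10 genes in turn was the covariate in a limma regression of all 15977 other genes within the 12 groups, 18 of the 90 ordered pairs of these genes passed at an adjusted p of 0.05, all of them positive. Over the 10 regressions 5.31% of all tests passed, and the share of all genes that passed varied widely with the covariate. With Pfkl it was 0.363%, and Aldoa, Eno1, Pkm and Ldha were among them. With Aldoa it was 1.74%, with Pfkl, Eno1 and Pkm, and with Pkm 1.85%, with Pfkl, Aldoa, Eno1 and Ldha. With Eno1 it was 12.2%, with Hk2, Pfkl, Aldoa and Pkm among them. With Hk2 it was 17.8%, with Eno1 only of the 10, with Slc2a1 13.6% and with Slc2a3 5.63%, each with the other transporter only. With Pgk1 and Ldha 0% of genes passed, and with Pdk1 0.00626%, none of them among the 10 genes. Of the 3 lowest pairs none passed in either direction, with adjusted p from 0.1003 to 0.520.

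A single embryo weighed on these counts. Without control replicate 1 at 10 somites, 6 in place of 18 ordered pairs passed, where 2.72% in place of 5.31% of all tests did, and Pfkl and Aldoa had r = 0.79 with an adjusted p of 0.0846 (limma). In that embryo Aldoa, Pfkl, Pgk1 and Eno1 were the lowest of their group, at 649.9, 552, 833 and 805 CPM, where the other 3 controls with 10 somites were at 879 to 899.7, 726 to 762, 1046 to 1080 and 1091 to 1152 CPM. Its tailbud genes summed to 1034 CPM, the lowest of the 37 embryos, and its visceral endoderm markers to 4250.0 CPM, against 166 to 678 CPM in the other 3. Other sources of spread moved with these genes too. Within groups, the log2 sum of the visceral endoderm markers had r = 0.61 with Slc2a3 and 0.47 with Slc2a1, and −0.24 to −0.52 with the 8 other genes. The sum of the tailbud genes had r = −0.54 with Slc2a3, −0.465 with Slc2a1, 0.68 with Hk2 and 0.60 with Pfkl. The GC trend had r = 0.63 with Slc2a1, and log10 depth 0.44 with the mean of the 10 genes. With the GC trend as a covariate 28 of the 90 ordered pairs passed, where 6.02% of all tests did, among them Slc2a3 with Aldoa and with Eno1 (adjusted p = 0.0188 and 0.0184). With the visceral endoderm sum 11 did, where 2.73% of all tests did. With 6 stage means removed in place of 12 group means 31 passed, beside 6.99% of all tests. In the 21 controls alone 10 passed, beside 3.91%, and in the 16 Smchd1 matΔ embryos alone 1, beside 2.22%. Among the fits named in this paragraph, the share of all tests was above 5.31% in both with more than 18 pairs. It was below 5.31% in each of them with fewer. Fits that left out other embryos did not all follow this. Without Smchd1 matΔ replicate 1 or 2 at 9 somites, 21 and 19 pairs passed, beside 3.87% and 4.23% of all tests. Without control replicate 2 at 7 somites 20 passed, beside 6.06%. Without control replicate 1 at 6 somites 17 passed, beside 5.8%. What changed the counts was not tested.

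Of 9752 other genes with a mean of at least 10 CPM, the one whose deviations lay closest to the mean of the 10 genes was Gpi1, with r = 0.90 over 37 embryos. It encodes glucose phosphate isomerase, which acts between hexokinase and phosphofructokinase. The next were Cand2, Trpc4ap, Smarca4 and Lig1, with r of 0.82, 0.81, 0.81 and 0.80. The means of the other lists followed the 10 genes less closely, with r of 0.47 for the hypoxia response, 0.46 for the upstream regulators and 0.02 for the mean of the 19 other glycolytic enzymes.

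Some of these levels hold counts from neighbours. Exons of Gm49759 lie on the same strand over 15.3% of the exon length of Pkm, and Gm49759 was counted at 8.20% of the counts of Pkm. Gm12868 lies antisense to the end of Slc2a1 and Fam57b antisense to Aldoa, with 3.78% and 2.49% of the counts of these genes, and strand may not have been used in all libraries. Eno1b, a near copy of Eno1, had 4.93% of the counts of Eno1, and the copies of Aldoa 1.04%, so reads may be split between them.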

How the data were processed

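Tailbud RNA of 37 embryos was profiled by RNA-seq with 75 bp single-end reads. The authors mapped reads to GRCm38.p6 with HISAT2 2.0.5 after Trim Galore 0.4.4, per the submitters' processing notes, and deposited raw counts per gene for all libraries. Libraries came from a stranded or a non-stranded kit, and which library had which is not given in the sources used here. A deposited table of Hox log2 values and one of the authors' own comparisons between groups were not used, and 0 columns of per-sample counts were left unused.

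Of 35591 entries, 49 that repeated an identifier were dropped. Counts were tested with edgeR 4.0.16 (quasi-likelihood, filterByExpr with a minimum count of 10, TMM, Benjamini-Hochberg over all genes tested, threshold 0.05, two-sided) in R 4.3.3. Genotype fits held somite number and sex as terms, and slope fits were linear in somite number. Co-variation was tested with limma 3.58.1 on log2 CPM with a prior count of 2, with the 12 group means removed, and r with 100000 permutations of embryos within groups. CPM are counts scaled to 1000000 per library after TMM, and 95% intervals use the normal approximation to the SE. Exon lengths are from GENCODE M21.

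All 10 genes were named in each fit, with the called genes of the related lists or the 2 with the smallest p, the 5 highest and 3 lowest pairs and the 5 genes nearest in pattern. The 10 genes and the lists were chosen with earlier results of these data known. On simulated counts, 91% of genes changed by 0.5 log2 units between genotypes were recovered, and 48% and 100% of genes with slopes of 0.1 and 0.2 (both genotypes). A co-variation with an SD of 0.3 was recovered for 3.5% of genes and one of 0.6 for 100%. No genotype change under 0.5 log2 units was simulated, and the differences of the 10 genes over all stages were at most 0.18. Their spreads within groups, with SDs of 0.11 to 0.29 log2 units, were below both simulated SDs. For genotype and co-variation these shares thus do not give the recovery at the sizes seen here.

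The 42 pairs of libraries of the same group had a chi-square of 5.12 to 72.3 per degree of freedom, so none was counted as a repeat. Samples with the same replicate number in both genotypes did not deviate together as a rule: 6 of 16 pairs had r above 0.1, with a median of 0.01. The range was −0.32 to 0.76, and the highest values were those of replicates 1 and 2 at 9 somites (0.76 and 0.51). DESeq2 1.42.0, other scalings and filters, a replicate block, subsets of embryos and leaving out each embryo were tried as alternatives, and covariates for GC content and for visceral endoderm markers were added after seeing the data.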

Additional observations from a re-analysis of the deposited data

Results flagged for a closer look

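In groups of 4 embryos a value was singled out where its gap to the nearest of the others, as a share of the whole range, passed Dixon's 95% critical value. Of 40 combinations of gene and group 5 did so, where chance gives about 1 in 20. Of these, 4 were the lowest values of 1 embryo, control replicate 1 at 10 somites. Its Aldoa, at 649.9 CPM, lay below 879 to 899.7 CPM in the other 3, a gap of 0.928 of the range. For Pgk1, at 833 CPM against 1046 to 1080 CPM, the gap was 0.877, for Pfkl, at 552 CPM against 726 to 762 CPM, it was 0.85, and for Eno1, at 805 CPM against 1091 to 1152 CPM, it was 0.848. The other value was the highest Pkm among controls with 7 somites, in replicate 3, at 2802 CPM against 2445 to 2495 CPM, with a gap of 0.851.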

How the results depend on the processing

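Under 770 alternative values other than leaving out an embryo, 726 were taken as unchanged. Tested values had to keep their direction and side of the threshold. For counts of genes or pairs, a modest shift, such as 18 pairs to 15, was also taken as unchanged. An r or median r without a test was judged by its sign alone. The count of genes called for the slope over both genotypes was 7 in each fit that left out 1 embryo and 6 to 7 otherwise, the 6 coming with the visceral endoderm covariate. Within controls the slope count was 4 to 7 with 1 embryo left out and 1 with that covariate, and within Smchd1 matΔ embryos it was 4 to 5. Between genotypes the count over all stages stayed at 0, and DESeq2 called 1 gene at 6 to 8 somites. Of the 90 ordered pairs 18 passed, against 6 to 21 with 1 embryo left out (the 6 without control replicate 1 at 10 somites), 31 with 6 stage means removed, 10 in controls, 1 in Smchd1 matΔ embryos, 28 with the GC trend and 11 with the visceral endoderm sum. The causes were not tested. The replicate block changed no call of the slopes (7 over both genotypes) or between genotypes, and 15 ordered pairs passed with the block.

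The directions that turned were these. The genotype difference of Slc2a3 was 0.00089 with DESeq2, 0.00093 with RLE factors, 0.0013 with no filter, 0.0168 with the replicate block, 0.0148 without the 2 libraries rich in ribosomal RNA and 0.0124 with the visceral endoderm sum, and −0.0282 to 0.0376 with 1 embryo left out. That of Pdk1 was −0.0046 in females, and at 6 to 8 somites 0.0114 without the 2 libraries and 0.0602 with the GC trend, and −0.0487 to 0.0308 with 1 embryo left out. The slope of Eno1 was 0.0019 in control females, 0.0031 in Smchd1 matΔ embryos without the 2 libraries, and −0.0151 to 0.000149 in controls with 1 embryo left out. That of Hk2 was 0.0125 in Smchd1 matΔ females. That of Pkm was −0.0137 in controls and −0.0029 over both genotypes with the visceral endoderm sum, and −0.00535 to 0.0152 in Smchd1 matΔ embryos with 1 embryo left out.

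Single stages held 2 to 4 embryos a genotype and depth ran from 916444 to 80579115 counts, which limits the precision of small differences.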
